A study of Homo sapiens with 6 samples.

Results

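The genes described here are MDM2 and MDM4, the main inhibitors of the p53 protein, together with 7 genes that p53 switches on after DNA damage, CDKN1A, GADD45A, POLH, DDB2, XPC, CCNG1 and SESN1. They were taken as every probe set that the platform annotation assigns to 1 of these 9 gene symbols, which gave 13 of the 22215 probe sets tested, 5 of them for MDM2 and 1 for each other gene. These 13 probe sets stood for 9 of the 11963 named genes on the arrays. A probe set is a group of short oligonucleotides on the Affymetrix array that together report one transcript.

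Human neuroblastoma SH-SY5Y cells, a subclone of neuroblast-like tumour cells that divide in culture, were exposed for 4 h to medium with 140 nM free bilirubin (Bf 140 nM, 3 arrays) or to medium with the solvent alone, 0.6% dimethyl sulfoxide (DMSO 0.6%, 3 arrays). Unconjugated bilirubin (UCB) is the heme breakdown pigment that harms neurons in severe jaundice. Each array held RNA from its own flask, and both groups carried replicate numbers 1, 2 and 3. The comparison asks whether transcripts change early after UCB reaches the cells. Of the noradrenergic neuroblast markers 8 of 10 lay above the median probe set, with GATA3 at the 98.8th percentile and TH, the first enzyme of catecholamine synthesis, at only the 12.3rd, while 0 of 3 markers of liver or blood cells (ALB, PTPRC and CD3D) did. Of the mesenchymal or Schwann-like markers 5 of 8 lay above it, and their median level was 8.44 to 8.62 in Bf 140 nM and 8.72 to 8.73 in DMSO 0.6%. Gene by gene, however, their median difference was 0.01, with 4 of 8 above 0 and 0 of 8 past the limma test.

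The p53 protein is a transcription factor that is normally kept scarce, because MDM2 tags it for degradation and MDM4 covers its activation domain. DNA damage releases it from both, and its targets then halt the cell cycle (CDKN1A, GADD45A), repair or bypass damaged bases (DDB2, XPC, POLH) and restrain growth signalling (SESN1). The cyclin gene CCNG1 is a further target. MDM2 is itself a target, which closes a negative feedback loop.

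The DNA letters that p53 reads lie close to some of these genes, and matches found near start sites are shown because p53 acts on direct targets through such letters. RefSeq start windows (GRCh38.p14, 250 bases before to 50 after a start) were at hand for 8 of the genes, in 15 windows, some of which overlap. The p53 consensus half-site, which reads the same on both strands, was searched as an exact match and as a pair with a spacer of 0 to 13 bases and up to 2 mismatches outside its conserved C and G. In the lines that follow, capitals mark the half-sites.
DDB2, chr11:47214979-47214999 (+): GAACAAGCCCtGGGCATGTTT
MDM2, chr12:68808923-68808942 (+): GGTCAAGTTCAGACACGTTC
SESN1, chr6:109009023-109009042 (-): cgtctGGACAAGTCTccaca

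The DDB2 pair had both half-sites exact and began 5 bases after the start site. The MDM2 pair had 2 mismatches and lay 94 bases before a start that is downstream of the first one listed for the gene. SESN1 had a single exact half-site that began at -49. The windows of MDM4, CDKN1A, POLH, XPC and CCNG1 did not hold these letters, and GADD45A had no entry. Sequence outside the windows was not searched, so these genes may hold such letters elsewhere. Half-sites were present in 2 of the 15 windows and pairs in 3, of which 2 were overlapping MDM2 windows. Over 34796 distinct windows of the same length the shares were 6.65% for an exact half-site and 2.93% for a pair. A match describes the letters only and was not tested as a binding site.

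The members covered most of the signal range of the arrays. CCNG1, a cyclin that p53 induces, was the brightest, at the 93.3rd to 94.8th percentile of the array's probe sets. CDKN1A, which encodes the cyclin-dependent kinase inhibitor p21, lay at the 79.4th to 89.4th percentile. GADD45A, a growth arrest protein, reached the 75.4th to 85.0th and XPC, which finds distorted DNA, the 73.9th to 78.2nd. SESN1, a sestrin that restrains mTORC1, and DDB2, the damage sensor that hands ultraviolet lesions to XPC, lay just above the middle, at 60.1 to 68.3 and 56.9 to 62.5.

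POLH, the polymerase that copies past ultraviolet lesions, stayed below the median probe set on every array (36.8 to 48.8). All 5 MDM2 probe sets and MDM4 were dim. The brightest MDM2 probe set, 217373_x_at, had a median percentile of 34.8 and the dimmest, 211832_s_at, one of 11.1, while MDM4 had 18.7. The 3 markers of liver or blood cells had median percentiles of 9.45 (ALB), 11.8 (PTPRC) and 30.4 (CD3D), so MDM4 and 4 of the 5 MDM2 probe sets lay below the highest of them. Taking the brightest probe set of each gene, neighbours in this order overlapped over the 6 arrays for CDKN1A and GADD45A, GADD45A and XPC, SESN1 and DDB2, and MDM2 and MDM4. Oligonucleotides differ in how strongly they bind, so the order is one of signals and not of transcript numbers.

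**Figure D1:**
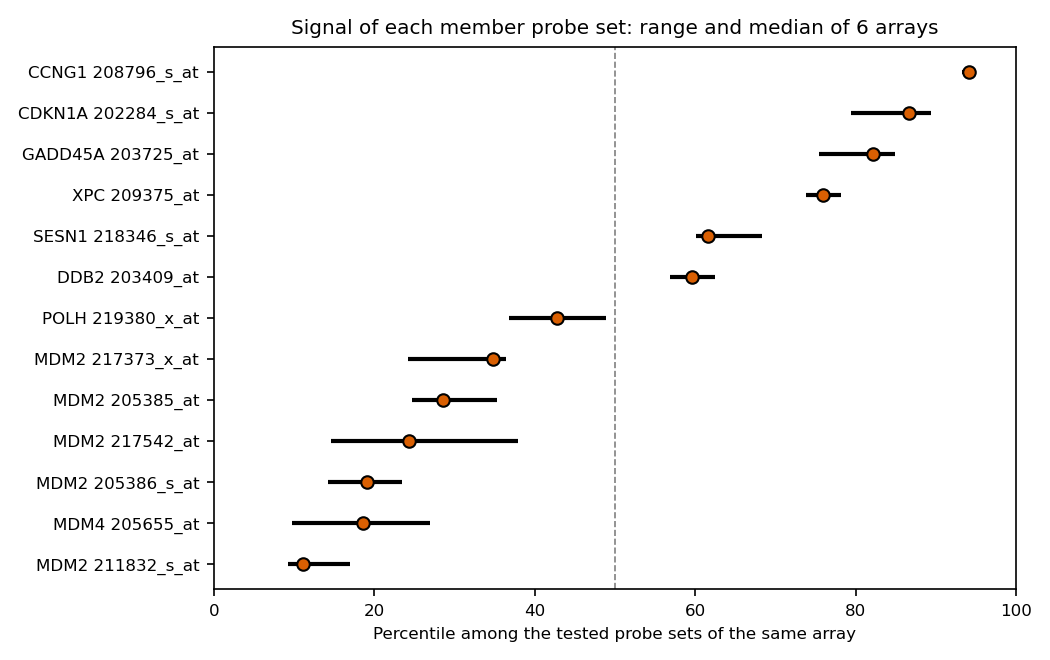
Percentile of each member probe set among the tested probe sets of the same array; lines give the range over 6 arrays and points the median. CCNG1 sits at 94.1, POLH just left of the middle at 42.8, and all MDM2 and MDM4 probe sets below 40.

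With Bf 140 nM, no member passed the test. Values are normalised log2 levels, differences are Bf 140 nM minus DMSO 0.6%, and a probe set counts as called at an adjusted p under 0.10 by limma. By this rule 0 of 13 member probe sets were called, as were 0% of all 22215, and the lowest adjusted p among the members was 1.00. At an unadjusted p under 0.05 there was 1 member, POLH, among 17 probe sets of the whole array. That is far fewer than this cut-off would pass if nothing changed and arrays varied independently. The limma test was thus cautious here, and the reason was not tested. The member differences ran from -0.14 for CDKN1A to 0.28 for POLH, with a median of 0.10, beside a median of 0.03 over all probe sets tested. They were above 0 for 10 of 13, where 63.2% of all probe sets were. The groups did not overlap for 3 members, each higher in Bf 140 nM, against 1.68% of all probe sets that were higher in this way, and for 0 members lower, against 0.981%.

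Those 3 members were POLH, DDB2 and one MDM2 probe set, and none of them kept apart once array medians were aligned. The array median was 7.85 in DMSO replicate 3 and at least 7.94 on the others. When each array was centred on its median, or quantile normalised, the count of members with Bf 140 nM wholly above DMSO 0.6% became 0. The shares over all probe sets were then 0.815% and 1.61%. The 95% confidence intervals of all 13 members lay inside a 2-fold change, as did 97.8% of those of all probe sets, with ratios between 0.642 (the lower bound for CDKN1A) and 1.57 (the upper bound for GADD45A). The deposited scale compresses dim values, so the intervals of MDM2, MDM4 and POLH understate the changes they would allow.

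**Figure D2:**
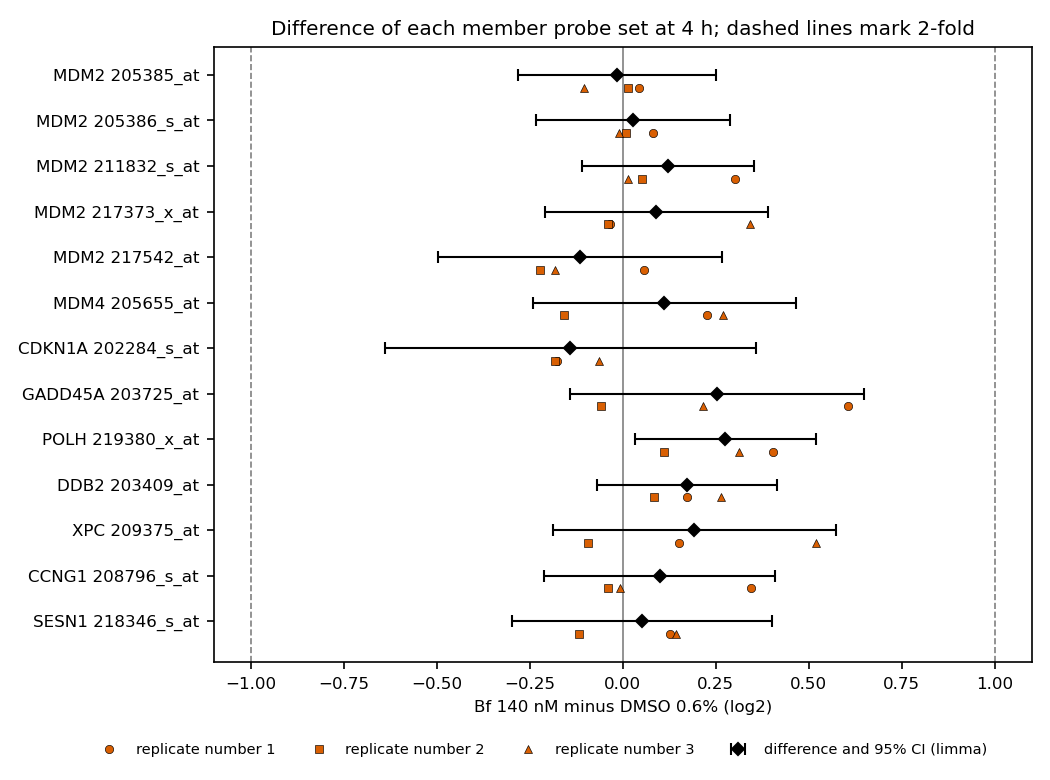
Difference between Bf 140 nM and DMSO 0.6% (log2) for each member probe set; black diamonds and bars give the limma difference with its 95% confidence interval, and orange markers the difference within each replicate number. All bars lie between the dashed lines of 2-fold change, and only that of POLH (0.03 to 0.52) does not cross 0.

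Among the inhibitors of p53, MDM2 was measured by 5 probe sets, whose differences had no common direction. The probe set 211832_s_at read 6.75, 6.59 and 6.55 in Bf 140 nM replicates 1, 2 and 3, and 6.45, 6.54 and 6.54 in DMSO 0.6%. The groups were set apart by only 0.01, and the difference of 0.12 (SE 0.10) had an exact two-sided permutation p of 0.1, the smallest that 3 arrays against 3 can give. Most of it came from replicate number 1, where the arrays differed by 0.30, against 0.05 and 0.01 in the others.

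The brightest MDM2 probe set, 217373_x_at, read 7.30, 7.31 and 7.30 in Bf 140 nM and 7.34, 7.35 and 6.96 in DMSO 0.6%. Its low value in DMSO replicate 3 set the sign of its difference of 0.09 (SE 0.13), since without that array the difference was -0.04 and all 3 Bf 140 nM arrays lay below the remaining DMSO arrays, as they did for 3.89% of all probe sets. DMSO replicate 3 also stood apart in RNA quality. Its beta-actin 3' minus 5' signal, a measure of incomplete transcripts, was 2.21, where the other arrays had 0.10 to 0.89, and whether this bears on MDM2 was not tested.

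The remaining MDM2 probe sets, 205385_at, 205386_s_at and 217542_at, differed by -0.02 (SE 0.11), 0.03 (SE 0.11) and -0.12 (SE 0.16), and their groups overlapped. For all 5 the ratio intervals together spanned 0.708 to 1.31. Across the 6 arrays the 10 pairs of MDM2 probe sets had Pearson correlations between -0.78 and 0.93, 5 of them below 0. Only 205385_at and 205386_s_at ran closely together (0.93), so dim signals that share a gene symbol did not share a pattern here. The ending _s_at marks oligonucleotides common to several transcripts and _x_at those that can also bind other sequences.

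MDM4 read 7.06, 6.63 and 6.75 in Bf 140 nM and 6.83, 6.79 and 6.48 in DMSO 0.6%. The groups overlapped and the difference was 0.11 (SE 0.15), a ratio of 1.08 (95% CI 0.846 to 1.38). Within replicate numbers 1, 2 and 3 it was 0.23, -0.16 and 0.27. Without Bf 140 nM replicate 1 it was -0.01.

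**Figure D3:**
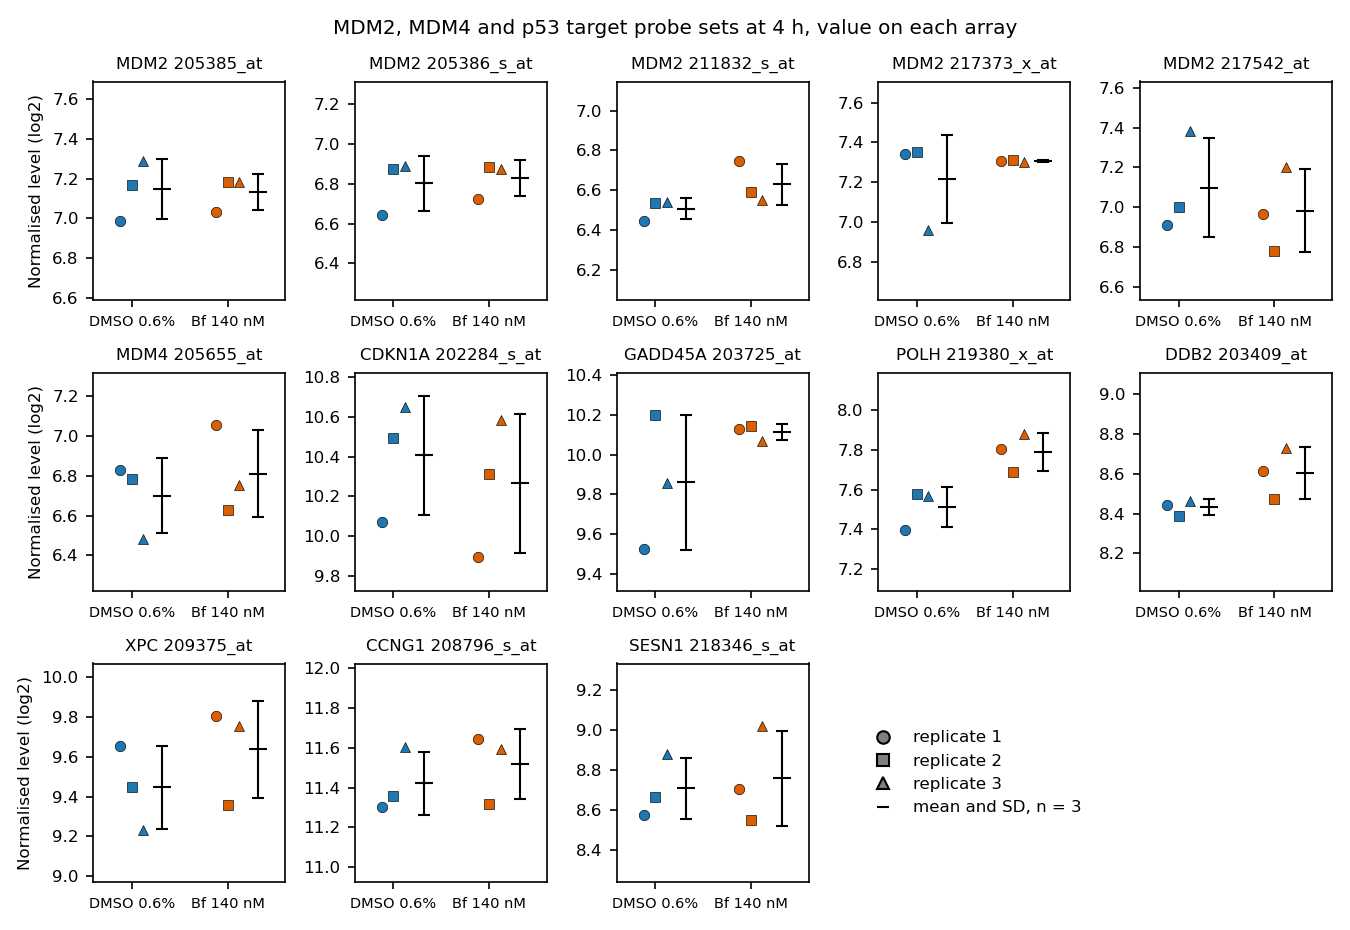
Normalised log2 level of the 13 member probe sets on each array, with DMSO 0.6% in blue and Bf 140 nM in orange; marker shapes give the replicate number, bars the mean and SD of 3 arrays, and every panel spans 1.1 log2 units. The Bf 140 nM points lie above the DMSO 0.6% points for POLH, DDB2 and MDM2 211832_s_at. CDKN1A and MDM2 205385_at follow the replicate number in both groups.

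CDKN1A was the member whose level moved most between arrays. The range of its 3 replicate number means was larger than the difference between its 2 group means. That also held for every other member probe set except those of POLH, DDB2 and MDM2 211832_s_at. A range over 3 means of 2 arrays tends to exceed a difference between 2 means of 3 arrays by noise alone. The comparison therefore cannot show a replicate effect. CDKN1A read 9.90, 10.31 and 10.58 in Bf 140 nM replicates 1, 2 and 3, and 10.07, 10.50 and 10.65 in DMSO 0.6%. Replicates 1 were the lowest and replicates 3 the highest in both groups, as they also were for MDM2 205385_at. For CDKN1A the means of the replicate numbers were 9.98, 10.41 and 10.62, a spread of 0.63. Its difference between groups was -0.14 (SE 0.21), a ratio of 0.907 (95% CI 0.642 to 1.28).

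It was also the only member lower in Bf 140 nM in 3 of 3 replicate numbers, by -0.18, -0.18 and -0.07, a pattern seen in 4.70% of all probe sets. With the replicate number as a block in the fit, its 95% interval narrowed to -0.39 to 0.11, and its adjusted p was 1.00 again. GADD45A, the other arrest gene, read 10.13, 10.14 and 10.07 in Bf 140 nM and 9.52, 10.20 and 9.85 in DMSO 0.6%. The Bf 140 nM arrays were close together (SD 0.04) and the DMSO arrays were not (SD 0.34), and DMSO replicate 2 lay above all 3 of the former.

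The GADD45A difference was 0.25 (SE 0.17), a ratio of 1.19 (95% CI 0.907 to 1.57). Within replicate numbers it was 0.60, -0.06 and 0.22, and it ranged from 0.09 without DMSO replicate 1 to 0.42 without DMSO replicate 2. CCNG1 differed by 0.10 (SE 0.13), with Bf 140 nM from 11.32 to 11.65 and DMSO 0.6% from 11.30 to 11.60. Its difference came from replicate number 1 alone, with 0.35 there and -0.04 and -0.01 in the others. The difference was below 0 for CDKN1A and above it for GADD45A and CCNG1. Each of their 95% intervals included 0, so neither a shared nor an opposed direction is read from them.

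The members of DNA repair and damage bypass each had a positive difference, as did 63.2% of all probe sets. POLH read 7.80, 7.69 and 7.88 in Bf 140 nM and 7.40, 7.58 and 7.57 in DMSO 0.6%, so the groups were set apart by 0.11. The means were 7.79 ± 0.10 and 7.51 ± 0.10 (SD, n = 3 each). Its difference of 0.28 (SE 0.10), a ratio of 1.21 (95% CI 1.02 to 1.43), was larger in size than that of 98.5% of all probe sets, had an unadjusted limma p of 0.032 and an adjusted p of 1.00.

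It was higher in 3 of 3 replicate numbers, by 0.40, 0.11 and 0.31, as were 8.96% of all probe sets. Leaving out any one array kept the POLH difference between 0.22 and 0.33. After median centring it was 0.24, and the lowest Bf 140 nM value then lay 0.03 under the highest DMSO value. This probe set carries the ending _x_at, so a part of its signal may come from other transcripts.

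DDB2 read 8.61, 8.47 and 8.73 in Bf 140 nM and 8.44, 8.39 and 8.47 in DMSO 0.6%. Its groups were set apart by 0.0056, which is less than the spread within either of them. The difference was 0.17 (SE 0.10), a ratio of 1.13 (95% CI 0.953 to 1.33), and it was 0.17, 0.08 and 0.26 within replicate numbers. DDB2 and POLH also varied together over the 6 arrays (Pearson correlation 0.85), as points that share the group and the replicate number. Other pairs of members reached such values, among them MDM4 and XPC (0.86). Over all 78 pairs of member probe sets the median was 0.22, and 22 were below 0.

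XPC, which acts beside DDB2 in nucleotide excision repair, read 9.80, 9.36 and 9.75 in Bf 140 nM and 9.65, 9.45 and 9.23 in DMSO 0.6%. The groups overlapped, with Bf 140 nM replicate 2 below DMSO replicates 1 and 2. The difference was 0.19 (SE 0.16), a ratio of 1.14 (95% CI 0.878 to 1.49). DMSO replicate 3, the array with the beta-actin value of 2.21, was the lowest, and without it the difference was 0.09, while without Bf 140 nM replicate 2 it was 0.33. SESN1, which links p53 to growth control, read 8.70, 8.55 and 9.02 in Bf 140 nM and 8.57, 8.67 and 8.88 in DMSO 0.6%. Its groups overlapped, its difference was 0.05 (SE 0.15), and its sign turned to -0.02 with quantile normalization.

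Replicate number 2 differed from the others in the median over the members. That median over the 13 probe sets was 0.15 and 0.14 within replicate numbers 1 and 3 but -0.04 within number 2. Over all probe sets tested these medians were 0.03, -0.0043 and 0.04. The sign in number 2 was opposite to that in both others for 4 of 13 probe sets, those of GADD45A, XPC, SESN1 and MDM4, where it was for 44.0% of all probe sets. POLH and DDB2 were higher in Bf 140 nM in each number and CDKN1A lower in each.

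The rest of the pathway was read from lists of other genes, each represented by its brightest probe set. None of the 13 measured regulators of p53 passed the test in either direction, nor did any of 22 other p53 targets, 16 repair partners or 6 paralogs of the members. Their median differences were 0.04, 0.04, 0.05 and 0.05, beside 0.03 over the brightest probe sets of all genes. Differences above 0 were found for 8, 13, 9 and 4 of them, where 63.7% of all genes were above 0.

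Among regulators with a level above the median probe set, the highest differences were those of the checkpoint kinase CHEK2 (0.15, SE 0.14) and the ubiquitin ligase RCHY1 (0.14, SE 0.19). The lowest were those of the damage-sensing kinase ATM (-0.16, SE 0.19) and CDKN2A (-0.09, SE 0.17), whose ARF product blocks MDM2. Among other targets at such levels, TIGAR, which diverts sugar away from glycolysis, had 0.25 (SE 0.16) and the antiproliferative gene BTG1 0.21 (SE 0.26). The cell cycle inhibitor SFN had -0.12 (SE 0.16) and EI24 -0.09 (SE 0.26). The cell death genes BAX, a pore former of mitochondria, and PMAIP1, which encodes NOXA, had -0.05 (SE 0.22) and 0.04 (SE 0.18). Groups did not overlap for PERP (0.11, SE 0.10), PHLDA3 (0.05, SE 0.09) and, among repair partners, ERCC2 (0.17, SE 0.10), each higher in Bf 140 nM, as were 1.84% of all genes. PERP was dim (percentile 3.69), and after median centring the groups overlapped for PHLDA3, after quantile normalization for PHLDA3 and PERP. BAX, PMAIP1, these 3 genes and DDB1 were chosen after their values were seen.

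Of the repair partners at such levels, the helicase ERCC3 had 0.22 (SE 0.22) and the damage verifier XPA 0.21 (SE 0.18), while PCNA, the sliding clamp, had -0.10 (SE 0.16) and RAD23B, a partner of XPC, -0.02 (SE 0.19). DDB1, with which DDB2 forms a complex, had 0.06 (SE 0.10). The paralogs ran from -0.06 to 0.15. GADD45B (0.15), POLI (0.11), CDKN1C (0.06) and CCNG2 (0.04) were above it and CDKN1B (-0.03) and GADD45G (-0.06) below. Several of these values shrank or turned in sign when DMSO replicate 3, the array with the high beta-actin value, was left out. Without it CHEK2 was 0.0042, RCHY1 -0.03, ATM 0.02, SFN 0.03, EI24 0.12 and BTG1 0.0076. Likewise ERCC3 was -0.0046, POLI 0.0025, CCNG2 0.0005, CDKN1B 0.02 and GADD45G 0.02. Of these, CHEK2, BTG1, POLI and CCNG2 shrank but kept their sign, and the rest turned. The other pathway genes named here kept their sign, among them TIGAR (0.20), XPA (0.33), GADD45B (0.15), CDKN1C (0.15), CDKN2A (-0.19), PCNA (-0.10) and RAD23B (-0.21). Differences of these genes without other single arrays are not given here, and whether RNA quality bears on them was not tested.

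**Figure D4:**
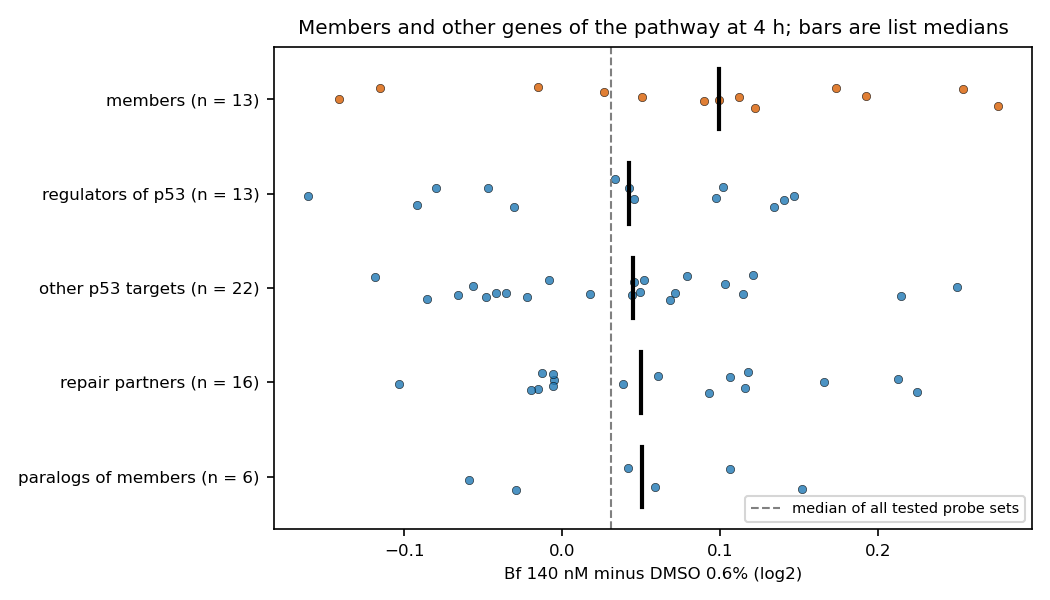
Difference between Bf 140 nM and DMSO 0.6% (log2) for the 13 member probe sets in orange and for 4 lists of other pathway genes in blue, 1 point each; black bars are list medians and the dashed line is the median of all tested probe sets (0.03). The member median is 0.10 and the list medians are 0.04 to 0.05, with points on both sides of 0 in every row.

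The patterns over the 6 arrays most like those of the central members were sought among 9949 probe sets above the median signal. For CDKN1A these were CDH2 (Pearson correlation 0.987), which encodes N-cadherin, GPM6B (0.987) and PRRC2C (0.983). For the brightest MDM2 probe set they were AKIP1 (0.998), MPDU1 (0.998) and RHOC (0.997). That probe set read 6.96 in DMSO replicate 3 and 7.30 to 7.35 on the other arrays, so its correlations rest mainly on that array. With 6 points and so many candidates, values of this size are a description of likeness and nothing more.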

How the data were processed

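RNA from SH-SY5Y cells was hybridised to Affymetrix GeneChip arrays for human transcripts, 3 for Bf 140 nM and 3 for DMSO 0.6%. The authors computed intensities with GCOS and applied variance-stabilizing normalization (justvsn, R version 2.5.0), so the deposited values are on a generalised log2 scale (5.34 to 15.2); the sources used here do not say how probes were summarised into probe sets. Of 22277 probe sets, 62 controls were left out. The Present-call filter of the study's methods was not applied, as detection calls were not used here, so dim probe sets, those of MDM2 and MDM4 among them, were tested too. Gene names came from the platform annotation, updated by Entrez identifier, for the 19064 probe sets to which it gives 1 symbol; 1043 have several and 2108 none.

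Groups were compared with limma (version 3.58.1, R version 4.3.3) on all 22215 probe sets, unpaired, two-sided, with Benjamini-Hochberg adjustment at 0.10 in place of the SAM test of the study's methods and at its FDR of about that size. The limma step was tested on simulated data with independent noise and no array or replicate effects. Such data do not show how small a change these 6 arrays could reveal. Intervals are at 95%. Percentiles give the share of an array's tested probe sets with lower values. Deviations of same-numbered arrays from their group means correlated by 0.60, 0.23 and 0.57, each above 0.1. The numbers in the labels were therefore taken to pair the arrays in the replicate block and the differences within replicate numbers. Standard errors, intervals and p-values are from the unpaired fit unless the block is named. With the block the SE was 0.11 in place of 0.21 for CDKN1A, and 0.12 in place of 0.10 for POLH. Arrays have no read depth; their number limits precision. The named pathway genes were, per list, the 2 highest and 2 lowest differences above the median signal, and all paralogs. Members, lists and tests were chosen with earlier results of these data known. Alternatives were the replicate block, median centring, quantile normalization, a filter on the mean, other thresholds, single-array omission and exact permutation.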

Additional observations from a re-analysis of the deposited data

How the results depend on the processing

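No member and no pathway gene passed the threshold in any alternative it entered: thresholds of 0.05 and 0.20, other scalings, single-array omission, each gene's median probe set value and the filter on the mean, which kept only 6 of 13 member probe sets and none of MDM2, MDM4 or POLH. The replicate block gave 0 calls over all probe sets and 92 at an unadjusted p under 0.05, against 17 unpaired. The number of members with Bf 140 nM wholly above DMSO 0.6% was 0 after median centring and 0 after quantile normalization. Without DMSO replicate 3, an alternative chosen after seeing the data, it was 3 (4.85% of all probe sets), and 1 member, MDM2 217373_x_at, lay wholly below (3.89% of all). With another scaling or 1 array left out, 12 of 104 member differences turned in sign. MDM2 205386_s_at became -0.0061 with median centring and SESN1 -0.022 with quantile normalization. Leaving out single arrays turned MDM2 205385_at (range -0.096 to 0.055), MDM2 205386_s_at (-0.054 to 0.079), MDM2 217373_x_at (-0.039 to 0.16), MDM2 217542_at (-0.22 to 0.027), MDM4 (-0.010 to 0.20), CDKN1A (-0.31 to 0.043) and SESN1 (-0.081 to 0.15). It did not turn XPC (0.086 to 0.33), GADD45A (0.086 to 0.42), CCNG1 (0.036 to 0.20), MDM2 211832_s_at (0.063 to 0.16), DDB2 (0.11 to 0.24) or POLH (0.22 to 0.33). Leaving out both arrays of a replicate number, also chosen after seeing the data, turned 4 of 39 differences: without number 1, MDM2 205386_s_at (-0.0012) and CCNG1 (-0.024), and without number 3, MDM2 205385_at (0.029) and MDM2 217373_x_at (-0.037). CDKN1A turned without Bf 140 nM replicate 1 alone, but stayed between -0.18 and -0.12 when whole numbers were left out.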
